A study of Mus musculus with 6 samples.

Results

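Sparc, Sparcl1, Gpc4, Gpc5, Gpc6, Chrdl1, Megf10, Mertk, Axl and Gas6 encode proteins by which astrocytes are known to promote, restrain or remove synapses. The 10 genes were taken by name from the 32285 genes of the count matrices, by a rule that sets no threshold on a measured level, and followed in astrocytes, in the pericytes sorted with them and in the mice of the 4 behavioural groups. The mice were young adult wild-type animals. The labels give them as male C57BL/6N, whereas the methods name C57BL/6NCrSlc mice and state for the study as a whole that both sexes were used. NoFC mice were placed in the chamber without shock, FC mice received foot shocks, NoFR mice were shocked and then stayed in the home cage, and FR mice were shocked and returned to the chamber a day later. The amygdala was collected 90 min after the start of the behavioural test. By the paper, FC mice were taken 90 min after the shocks, whereas NoFR mice were taken a day after the shocks, without recall. FC and NoFR mice therefore differ in the time since the shocks. In all groups the tissue was dissociated in actinomycin D, triptolide and anisomycin, which block transcription or translation. Cells stained by ACSA-2, an antibody against the astrocyte surface protein ATP1B2, were sorted and pooled into 3 single-cell RNA sequencing libraries, with a hashtag antibody marking each of 16 mice, 4 per group.

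Astrocytes shape synapses through secreted and contact-dependent signals. Secreted hevin, encoded by Sparcl1, bridges neuronal adhesion proteins and promotes excitatory synapses, whereas SPARC, its close relative, opposes hevin. Glypicans carry heparan sulfate chains on a lipid anchor, and shed glypican 4 and glypican 6 draw AMPA receptors to young synapses. Chordin-like 1 binds bone morphogenetic proteins (BMPs) and drives the switch to mature AMPA receptor subunits. MEGF10 and MERTK are receptors through which astrocytes engulf synaptic material. MERTK and AXL belong to the TAM family of receptor tyrosine kinases, and GAS6 is the ligand that links them to phosphatidylserine on the material engulfed.

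The 3 libraries held 13546 barcodes and 107419453 UMIs (unique molecular identifiers, each counting 1 captured transcript). A barcode was taken as an astrocyte with at least 20 UMIs of the glutamate transporters Slc1a2 and Slc1a3 and at most 3 of the pericyte genes Vtn and Rgs5, and as a pericyte with at least 10 UMIs of Vtn and Rgs5 and at most 5 of Slc1a2 and Slc1a3. This gave 8757 astrocytes (64.6%), 2260 pericytes (16.7%) and 2529 barcodes in neither gate (18.7%). Astrocytes had a median of 9891 UMIs and pericytes 5006. The names held up against other markers. The 10 astrocyte markers summed to 9342 to 9412 CPM (counts per 1000000 gene UMIs of the gate) in astrocytes, and 8 pericyte markers summed to 8799 to 9011 CPM in pericytes. In pericytes the astrocyte markers summed to 747 to 821 CPM, of which Atp1b2 made up 666 to 696 CPM. The pericyte markers summed to 113 to 126 CPM in astrocytes. Pericytes are mural cells of the capillary wall, and their transcript level of Atp1b2, the gene of the sorted antigen, was 83.1% of that in astrocytes. The 10 microglial and macrophage markers summed to 15.7 to 19.2 CPM in astrocytes and 24.2 to 35.7 CPM in pericytes, with 2 to 6 of them at 0 in any library and gate. In pericytes the markers of other vascular cells summed to 175 to 193 CPM for endothelial cells, 151 to 209 CPM for smooth muscle and 225 to 262 CPM for perivascular fibroblasts. Flt1 made up 124 to 137 CPM of the endothelial sum, and Col1a2 made up 199 to 216 CPM of the fibroblast sum. Oligodendrocyte lineage markers summed to 753 to 787 CPM, of which Cspg4, also a pericyte marker, made up 748 to 778 CPM. In astrocytes these 4 sums were at most 6.28, 0.603, 29.8 and 15.3 CPM. Neuronal markers were at 10.1 to 14.2 CPM in astrocytes and 2.26 to 4.03 CPM in pericytes. The libraries held 31700569 to 42350059 UMIs each and shared 3 to 8 barcode sequences pairwise. Each library pooled several mice, so that tests over libraries measure the spread between pools.

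Astrocytes and pericytes divided the 10 genes between them. In pericytes Gpc5, Megf10 and Chrdl1 were as low, relative to astrocytes, as astrocyte markers. Mertk and Gas6 were higher in astrocytes with a clear pericyte level, Sparcl1 was moderately higher in astrocytes, and Sparc and Axl were higher in pericytes. Of the 10 genes, 7 were called higher and 2 lower in astrocytes than in pericytes (edgeR quasi-likelihood test on the sums of the 3 libraries, library as a block, Benjamini-Hochberg adjusted p under 0.05 over 15361 genes). Most genes differed between these cell classes, with 79.6% of all genes tested called, 42.8% of them higher and 36.9% lower in astrocytes. The median log2 fold change was 1.68 over the 10 genes and 0.10 over all genes tested. Scaling by library totals in place of TMM (trimmed mean of M-values) moved the median of all genes to -0.11 and the calls from 6569 higher and 5661 lower to 5539 higher and 6723 lower.

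**Figure D1:**
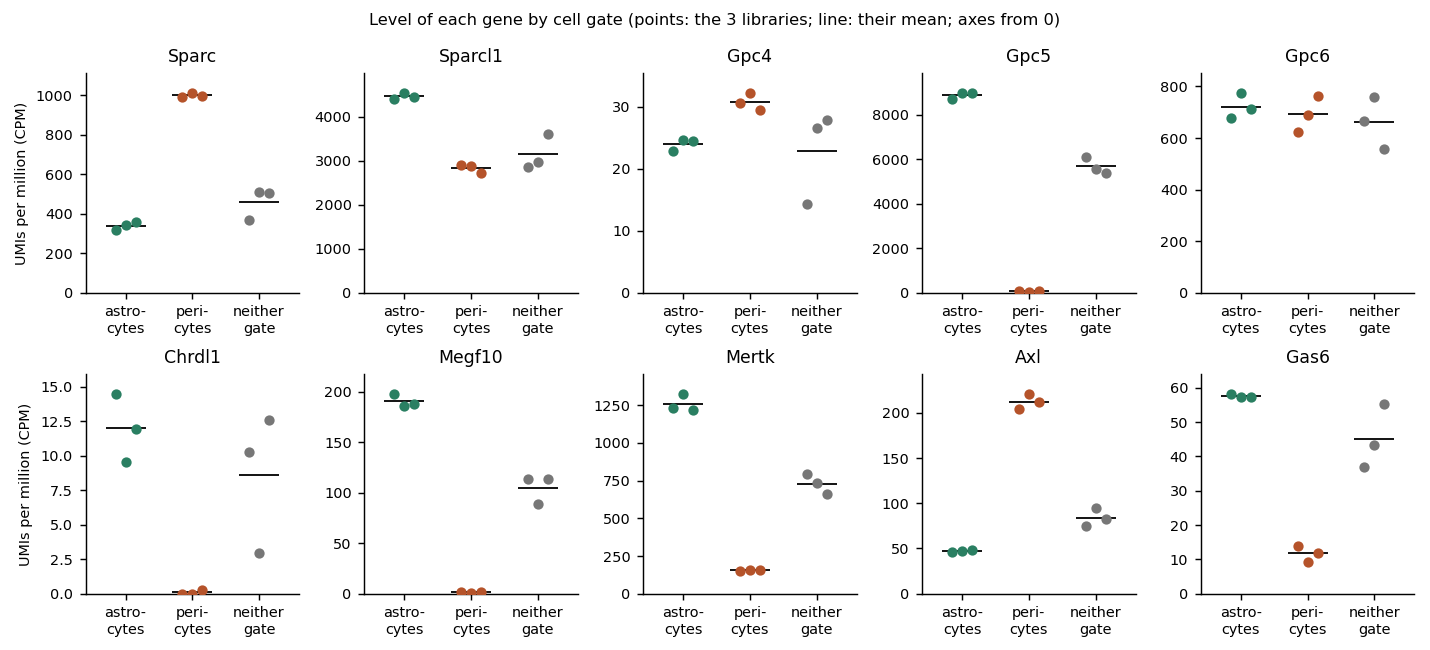
Level of each of the 10 genes in CPM (vertical axes from 0) in astrocytes, pericytes and barcodes of neither gate; each point is 1 of the 3 libraries and the line is their mean. Gpc5, Chrdl1 and Megf10 lie near 0 in pericytes, Sparc and Axl are highest in pericytes, and Gpc6 overlaps between the gates. Barcodes of neither gate held few UMIs (median 725 to 900 by library) and cannot be assigned to 1 cell class.

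Gpc5, which encodes glypican 5, a heparan sulfate proteoglycan of the cell surface, was far higher in astrocytes, as were Megf10 and Chrdl1. Gpc5 (chr14:115092215-116525179, plus strand, GRCm38) was at 8717, 8973 and 8975 CPM in the astrocytes of libraries 1 to 3 and at 76.1, 54.8 and 62.8 CPM in the pericytes. The levels did not overlap, and the log2 fold change was 7.30 ± 0.10 (SE, adjusted p = 3.03e-29). The pericyte level was 0.737% of the astrocyte level (95% counting interval 0.686 to 0.791), below that of the astrocyte markers Slc4a4 (0.812%), Gja1 (0.930%) and Aqp4 (0.934%), transcripts that pericytes are not known to make. Cells with at least 3000 UMIs were thinned to that depth. Shallower cells, 148 to 204 astrocytes and 42 to 70 pericytes per library, were left out. Of the thinned cells, 98.6 to 99.1% of astrocytes and 12.9 to 19.1% of pericytes held a Gpc5 UMI. An astrocyte held a median of 23 to 24 Gpc5 UMIs at this depth, and the 10th and 90th percentiles were 10 to 11 and 44 to 45 UMIs. The variance of the count between astrocytes was 7.20 to 7.97 times its mean, against a ratio of 1 for counting error alone, so that Gpc5 differed between astrocytes by more than counting error. Gpc5 spans 1433 kb, and genes of at least 500 kb had a median log2 fold change of 2.31 between the classes (214 genes). The sources do not state whether reads in introns were counted, and the part of gene length in the Gpc5 difference was not tested.

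Megf10 and Chrdl1, an engulfment receptor and a secreted BMP antagonist, shared this distribution at lower levels. Megf10 (chr18:57133090-57297467, plus strand, GRCm38) was at 198, 186 and 188 CPM in astrocytes and at 1.58, 0.565 and 1.61 CPM in pericytes (log2 fold change 7.42 ± 0.14, SE, adjusted p = 2.59e-26). Its pericyte level rested on 15 UMIs and was 0.671% of the astrocyte level (interval 0.375 to 1.11). Chrdl1 (chrX:143285674-143394262, minus strand) was at 14.5, 9.54 and 11.9 CPM in astrocytes, with 1118 UMIs in all, whereas the pericytes held 1 UMI. The ratio of the levels was 143, with a counting interval from 25.6 to 5647. At 3000 UMIs per cell, 38.6 to 41.9% of astrocytes held a Megf10 UMI and 2.29 to 3.52% a Chrdl1 UMI. No pericyte of the thinned cells held a Chrdl1 UMI.

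Mertk and Gas6 were higher in astrocytes but were also found in pericytes beyond the level of the astrocyte markers. Mertk (chr2:128698956-128802894, plus strand) was at 1232, 1324 and 1219 CPM in astrocytes and at 154, 156 and 154 CPM in pericytes (log2 fold change 3.23 ± 0.06, SE, adjusted p = 2.01e-26). Its pericyte level was 12.3% of the astrocyte level (interval 11.8 to 12.9). Gas6 (chr8:13465374-13494490, minus strand), the ligand, was at 58.1, 57.3 and 57.2 CPM in astrocytes and at 14.03, 9.33 and 11.8 CPM in pericytes (2.49 ± 0.11, adjusted p = 5.75e-18). The pericyte level of Gas6 was 20.7% of the astrocyte level (interval 17.3 to 24.4). It rested on 62, 33 and 44 UMIs in libraries 1 to 3. The pericyte gate also took in 19 smooth muscle, fibroblast or endothelial barcodes. The few barcodes of the smooth muscle gate held 10, 1 and 25 Gas6 UMIs (193, 47.5 and 308 CPM). In library 1 all 5 such barcodes were smooth muscle and lay in the pericyte gate, so that 10 of its 62 pericyte Gas6 UMIs were theirs. For libraries 2 and 3 the part of such barcodes in the pericyte Gas6 level was not counted. Among the astrocyte markers, apart from Atp1b2, the highest pericyte level was 1.91% of the astrocyte level, for Fgfr3. Mertk was found in 92.3 to 94.1% of thinned astrocytes and 33.0 to 33.9% of thinned pericytes, and Gas6 in 15.3 to 15.8% and 2.24 to 3.58%.

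Axl, the second TAM receptor of the list, had the opposite distribution to Mertk. Axl (chr7:25757273-25788705, minus strand) was at 46.3, 47.7 and 48.2 CPM in astrocytes and at 204, 221 and 212 CPM in pericytes (log2 fold change -1.95 ± 0.05, SE, adjusted p = 7.27e-23). Its astrocyte level was 22.4% of the pericyte level. Among the pericyte markers the highest such percentages were 4.13% for Pdgfrb and 3.85% for Notch3. Abcc9, Kcnj8 and Higd1b were at 0.0398%, 0.0469% and 0.0510% in astrocytes. Axl UMIs were found in 13.0 to 13.7% of thinned astrocytes and in 44.0 to 45.8% of thinned pericytes. Thus both TAM receptors were present in both classes, with Mertk 9.40-fold higher in astrocytes and Axl 3.86-fold higher in pericytes by the fit.

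The SPARC pair was expressed in both classes, with opposite bias. Sparcl1 (chr5:104079111-104113733, minus strand), encoding hevin, was at 4396, 4531 and 4454 CPM in astrocytes and at 2905, 2867 and 2726 CPM in pericytes, a 1.82-fold difference (log2 fold change 0.87 ± 0.06, SE, adjusted p = 5.11e-13). Sparc (chr11:55394500-55423183, minus strand) was at 319, 343 and 358 CPM in astrocytes and at 993, 1011 and 994 CPM in pericytes, 2.54-fold higher in pericytes (-1.35 ± 0.05, adjusted p = 2.14e-19). Neither gene overlapped between the classes in any library. Nearly every thinned cell held a Sparcl1 UMI, 99.1 to 99.3% of astrocytes and 98.7 to 99.4% of pericytes. Sparc UMIs were found in 50.4 to 52.6% of thinned astrocytes and 88.1 to 89.4% of thinned pericytes. In the fits that left out smooth muscle, fibroblast and endothelial barcodes from the pericytes, both genes kept their side and their call.

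The genes of glypican 4 and glypican 6, the glypicans that recruit AMPA receptors, differed least of the members between the classes. Their calls depended on the scaling. Gpc6 (chr14:116925315-117976544, plus strand) was at 677, 774 and 713 CPM in astrocytes and at 623, 688 and 763 CPM in pericytes, so that the levels overlapped. With TMM its log2 fold change was 0.27 ± 0.05 (SE, adjusted p = 5.98e-05), and with scaling by library totals it was 0.06 (adjusted p = 0.275). Gpc4 (chrX:52053021-52165252, minus strand) was at 22.9, 24.6 and 24.4 CPM in astrocytes and at 30.6, 32.2 and 29.5 CPM in pericytes. These levels did not overlap, and the pericyte level was 129% of the astrocyte level (95% counting interval 115 to 144). With TMM its difference missed the threshold (-0.15 ± 0.09, adjusted p = 0.131), and with library totals Gpc4 was lower in astrocytes (-0.36, adjusted p = 0.00103). Gpc6 UMIs were found in 75.5 to 77.7% of thinned astrocytes and 64.2 to 71.1% of thinned pericytes, and Gpc4 UMIs in 6.05 to 7.18% and 7.23 to 8.49%. Gpc6 was spread more unevenly over pericytes than over astrocytes, with a variance of 2.67 to 4.97 times the mean in pericytes and 1.84 to 2.17 times in astrocytes, and a pericyte of library 3 held 33 of its UMIs at 3000 UMIs.

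**Figure D2:**
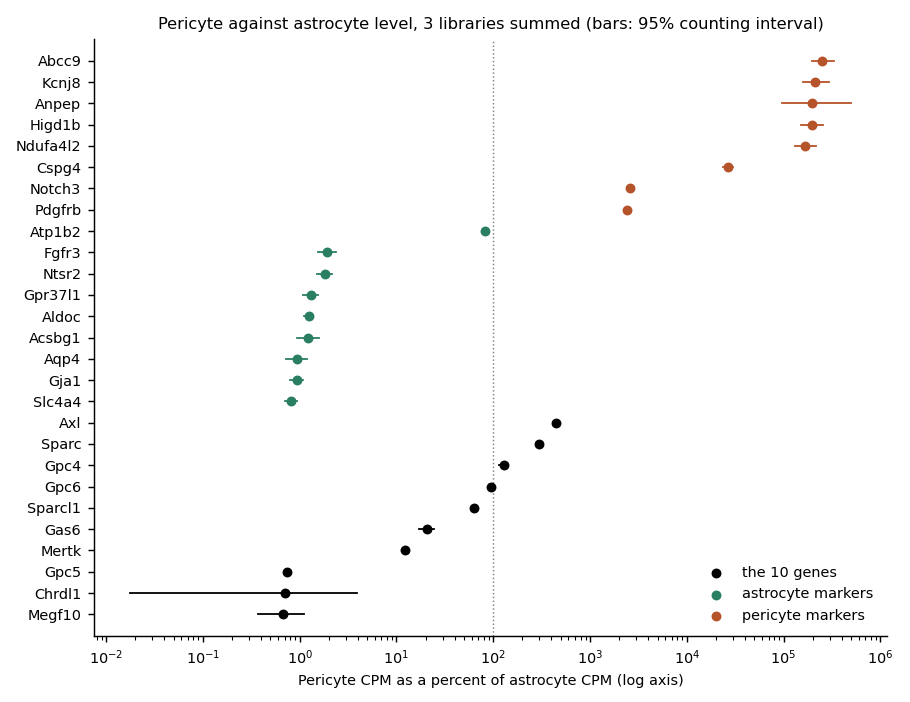
Pericyte level as a percent of the astrocyte level (log axis) for the 10 genes (black), astrocyte markers (green, without Gfap, which was at 0 in pericytes) and pericyte markers (brown), the 3 libraries summed; bars are 95% counting intervals and the dotted line marks 100%. Gpc5, Chrdl1 and Megf10 fall among or below the astrocyte markers. Mertk, Gas6 and Sparcl1 lie above every astrocyte marker but Atp1b2 (83.1%), and Sparc and Axl are highest of the 10 genes.

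The sequence before the start of the gene is given for 3 members, chosen to show an astrocyte gene (Gpc5) and both TAM receptors, which had opposite distributions. The 250 bases before the annotated start come from RefSeq (GRCm38.p6), whose promoter table held 6 of the 10 genes. Capitals mark matches on either strand to the GC box GGGCGG, which 32.7% of the 32851 promoters of the table hold in these 250 bases, or to the TATA box TATAAA, which 12.4% hold. The half-site of NFI factors (TTGGCA, in 12.3% of promoters) and the SOX motif CATTGT (in 10.7%) were also searched and were found in none of the 6 members. Each is written 5′ to 3′ on the strand of the gene, and the motifs do not overlap.
Gpc5, chr14:115091965-115092214, plus strand: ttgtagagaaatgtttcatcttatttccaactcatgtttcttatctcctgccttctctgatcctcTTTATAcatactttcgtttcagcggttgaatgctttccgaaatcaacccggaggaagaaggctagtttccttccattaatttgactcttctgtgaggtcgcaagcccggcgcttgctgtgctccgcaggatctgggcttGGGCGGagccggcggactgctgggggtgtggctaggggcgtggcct
Mertk, chr2:128698665-128698914, plus strand: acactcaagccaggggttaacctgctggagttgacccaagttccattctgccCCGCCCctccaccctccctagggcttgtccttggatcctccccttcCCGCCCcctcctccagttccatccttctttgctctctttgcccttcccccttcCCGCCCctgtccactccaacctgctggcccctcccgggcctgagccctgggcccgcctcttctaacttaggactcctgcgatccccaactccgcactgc
Axl, chr7:25788734-25788983, minus strand: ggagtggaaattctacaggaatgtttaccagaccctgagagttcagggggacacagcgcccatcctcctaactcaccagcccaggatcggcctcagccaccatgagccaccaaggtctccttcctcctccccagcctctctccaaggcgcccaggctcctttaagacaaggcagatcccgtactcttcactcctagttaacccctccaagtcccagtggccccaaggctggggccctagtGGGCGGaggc
The Gpc5 stretch held 1 TATA box match, read on the other strand, and 1 GC box, Mertk held 3 GC boxes and Axl held 1 GC box that lay 10 bases before its RefSeq start. The RefSeq starts of Mertk and Axl lay upstream of the gene positions given above. The short stretch searched for after each start lay wholly (Mertk) or partly (Axl) outside those gene positions. A search for it in the annotated transcripts could therefore give no match, and nothing is drawn from it. GC bases made up 51.2% of the Gpc5 stretch, 63.6% of Mertk and 60.0% of Axl, against a median of 52.4% over all promoters. A match of letters is a description and was not tested as a binding site.

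Small sets of barcodes within the gates differed from the main classes in some of the genes. Sox11, a transcription factor of immature neural cells, marked 56 barcodes with at least 5 UMIs, of which 54 were also in the astrocyte gate. In them Gpc5 was at 876, 1223 and 733 CPM and Sparcl1 at 490, 579 and 548 CPM, below every library of all astrocytes. Mertk was at 96.7, 147 and 74.0 CPM and Sparc at 23.9, 92.0 and 28.3 CPM, also below every library of all astrocytes. Gpc6 was at 602, 665 and 376 CPM, below the level of all astrocytes in each library. Chrdl1 was at 18.8, 12.3 and 26.1 CPM from 15, 4 and 12 UMIs, held by 10, 2 and 3 barcodes. These Chrdl1 values were above those of all astrocytes in each library. The counting intervals of libraries 1 and 2 (10.5 to 31.1 and 3.34 to 31.4 CPM) included the astrocyte value. Only 27, 11 and 18 barcodes stood behind these values and no test was run. They held 796101, 326184 and 459645 UMIs in all, so that they were deeper on average than the astrocyte median of 9891 UMIs. The part of depth in these differences was not tested. The smooth muscle gate held 14 barcodes, the endothelial gate 6 and the fibroblast gate 5, too few to order the levels. For Mertk the highest Sox11 library (147 CPM) came close to the lowest pericyte library (154 CPM), so that these levels could not be ordered. That highest value, of library 2, rested on 48 UMIs that all came from 1 of the 11 barcodes. In libraries 1 and 3, 9 of 27 and 3 of 18 Sox11 barcodes held a Mertk UMI.

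The genes whose level followed these 6 members most closely were sought over the 7 sums of gate and library with at least 20 barcodes, as a description with no test. For Sparc they included Itgb5 and Trib2, and for Sparcl1 they were Kalrn, Syn3 and Acadl. For Gpc5 they were Gm20713, St6galnac5 and Il18. Whether reads of Gm20713 and Gpc5 can be told apart was not tested. Chrdl1 was most like E2f6, Ssx2ip and Pdss1, Mertk most like Cyp2d22, Maob and Cpeb3, and Axl most like Fam131a, Mgat3 and Lats2. The correlations of log2(CPM + 1) with these named genes were all at least 0.998. Each member also had 90 to 398 genes above a correlation of 0.99, since 6 of the sums are the same 3 libraries split into astrocytes and pericytes. The remaining sum was the Sox11 set of library 1, whose 27 barcodes included 26 that were also in the astrocyte gate. The 7 sums are therefore not 7 independent profiles.

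The lists below hold genes that act with the members and, unless stated, the members themselves. Of all genes tested, 42.8% were higher and 36.9% lower in astrocytes. Of 18 glypicans and partners, 17 were tested and 11 were higher and 5 lower in astrocytes (median log2 fold change 1.04). Without the members, 14 were tested and 9 were higher and 5 lower (median 1.14). Gpc2 (12.6, 12.9 and 13.3 CPM in astrocytes against 0.905, 1.13 and 0.805 CPM) and the LAR phosphatase gene Ptprf (78.8, 80.3 and 80.9 against 0.905, 3.39 and 5.10) were higher in astrocytes. Gpc3 was a pericyte gene, at 347, 380 and 356 CPM against 0.439, 0.479 and 0.360 CPM in astrocytes (-9.48 ± 0.09, SE, adjusted p = 1.49e-32). The heparan sulfate enzymes Hs6st2, a sulfotransferase (-5.62 ± 0.24, adjusted p = 8.45e-18), and Sulf2, a sulfatase (-2.12 ± 0.25, adjusted p = 1.87e-08), were also lower in astrocytes.

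Of 22 genes of BMP signalling, 21 were tested, with 11 higher and 8 lower in astrocytes (median 0.26). Without Chrdl1, 20 were tested, with 10 higher and 8 lower (median 0.25), against 42.8% higher and 36.9% lower of all genes. The receptor gene Bmpr1b was at 434, 458 and 479 CPM in astrocytes and 3.85, 5.37 and 3.22 CPM in pericytes, and Id2, a classical BMP target, at 418, 385 and 423 CPM against 2.49, 2.83 and 6.44 CPM. The 3 genes named as the lowest in astrocytes encode ligands. Bmp4 was at 99.6, 98.9 and 112 CPM in pericytes and 0.0274, 0.147 and 0.0360 CPM in astrocytes, Bmp5 at 187, 175 and 185 CPM against 0.192, 0.332 and 0.683 CPM, and Bmp2 at 1.36, 2.26 and 4.56 CPM against 0.0548, 0.0737 and 0.108 CPM. Thus the antagonist Chrdl1 and these 3 ligands were higher in different classes.

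All 22 TAM and engulfment genes were tested, and 13 were higher and 7 lower in astrocytes (median 0.65). Without the members, 18 were tested and 10 were higher and 6 lower (median 0.40). Adgrb3, an adhesion receptor of the BAI family, was at 2241, 2278 and 2296 CPM in astrocytes against 13.6, 11.9 and 19.1 CPM, and the integrin gene Itgb8 at 189, 194 and 188 CPM against 1.58, 1.41 and 1.88 CPM. Pros1, encoding the other TAM ligand, was 22.3, 23.3 and 23.8 CPM in astrocytes and 116, 105 and 111 CPM in pericytes (-2.06 ± 0.07, SE, adjusted p = 9.64e-21), on the side of Axl and opposite to Gas6. Rac1, a small GTPase of the engulfment machinery, was also lower in astrocytes (-0.92 ± 0.05, adjusted p = 1.90e-15).

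Of 8 SPARC family genes, 5 were tested, with 3 higher and 2 lower in astrocytes (median 0.87). Without Sparc and Sparcl1, 3 were tested, with 2 higher and 1 lower (median 1.90). The higher genes beside Sparcl1 were Smoc1, at 35.1, 36.8 and 34.4 CPM against 0.226, 0 and 0.805 CPM, and Spock2 (1.90 ± 0.21, SE, adjusted p = 5.29e-09), and Fstl1 was lower with Sparc, at 70.3, 74.7 and 75.9 CPM against 172, 172 and 166 CPM (adjusted p = 1.29e-15). Of 17 other synapse factors, 15 were tested and 10 were higher and 3 lower in astrocytes (median 6.39, or 5.79 with Thbs4 set against a floor of 3 UMIs over the 3 pericyte sums). Nrcam and Nlgn1, adhesion molecules of astrocytes and neurons, were at 844 to 863 CPM and 1738 to 1853 CPM in astrocytes and at 3.39 to 6.56 CPM and 13.3 to 17.4 CPM in pericytes. Thbs4, a thrombospondin, was at 3.62, 2.39 and 1.65 CPM in astrocytes and at 0 in the pericytes of each library. Tgfb1 (-4.88 ± 0.12, adjusted p = 2.21e-23), Thbs2 (-4.52 ± 0.40, adjusted p = 5.41e-11) and Cacna2d1, the neuronal receptor subunit that thrombospondins bind (-2.26 ± 0.06, adjusted p = 2.48e-23), were lower in astrocytes.

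Within astrocytes 7 of the 10 members differed with Agt, the angiotensinogen gene, which marks a subset of astrocytes common in subcortical regions. Astrocytes with at least 5000 UMIs were thinned to that depth. The 413, 247 and 330 shallower astrocytes of libraries 1 to 3 were left out. Thinned astrocytes with at least 2 Agt UMIs (1018, 776 and 854 in libraries 1 to 3) were compared with those with none (1472, 924 and 1004). The 654, 556 and 509 astrocytes with 1 Agt UMI entered neither side. Sparc and Sparcl1 were higher in Agt-positive astrocytes, and Chrdl1, Gpc6, Mertk, Gpc5 and Megf10 were lower. These 2 genes called higher and 5 called lower stand against 9.06% higher, 9.95% lower and 19.0% called in all of 12468 genes tested. The median log2 fold change was -0.27 over the 10 genes and -0.01 over all genes.

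Sparc showed the largest rise of the list. It was at 591, 618 and 617 normalised CPM (TMM-scaled) in Agt-positive and at 193, 207 and 182 in Agt-negative astrocytes, with no overlap and a 3.14-fold difference (log2 fold change 1.65 ± 0.06, SE, adjusted p = 2.69e-26). Sparcl1 was at 5459, 5590 and 5475 against 3865, 3927 and 3679 (0.53 ± 0.05, adjusted p = 5.28e-11). Chrdl1 moved the other way, at 5.51, 5.72 and 3.21 in Agt-positive and 20.8, 10.5 and 14.8 in Agt-negative astrocytes (-1.71 ± 0.20, adjusted p = 3.62e-09). Gpc6 was at 536, 599 and 525 against 713, 904 and 798 (-0.53 ± 0.06, adjusted p = 3.81e-10), and Mertk at 1016, 1086 and 969 against 1339, 1496 and 1362 (-0.45 ± 0.05, adjusted p = 8.81e-09). In none of these genes did the groups overlap.

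The smaller differences were less stable. Gpc5 was at 7868, 7758 and 7394 in Agt-positive and 8805, 9789 and 9711 in Agt-negative astrocytes (-0.30 ± 0.05, SE, adjusted p = 3.99e-05), and its call was lost without library 2 (adjusted p = 0.0853), without library 3 (0.176) and without thinning (0.125). Megf10 was at 179, 183 and 162 against 201, 201 and 217 (-0.24 ± 0.07, adjusted p = 0.00557), and its call was lost without library 3 (0.339), without thinning (0.0709) and with DESeq2 (0.104). Gpc4 was called only without library 1 (-0.52, adjusted p = 0.00384) and otherwise missed the threshold (-0.32 ± 0.12, adjusted p = 0.0565). For Axl and Gas6 the 95% intervals of the log2 fold change ran from -0.20 to 0.15 and from -0.13 to 0.20. Agt-positive astrocytes had a lower median of UMIs before thinning (9258 to 9972.5 against 10920 to 11639.5), more Malat1, a nuclear RNA (97490 to 100107 against 89816 to 93742 CPM), and a mitochondrial share of 1.92 to 1.99% against 2.01 to 2.05%. Genes of at least 500 kb, which include Gpc5 and Gpc6, had a median of -0.18. The part of these values in the differences was not tested.

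Igfbp2, the secreted growth factor binding protein that the study followed up, marked a smaller set in which Chrdl1 was high. At 5000 UMIs, 354, 225 and 243 astrocytes held at least 2 Igfbp2 UMIs and 2454, 1810 and 1860 held none. The 336, 221 and 264 astrocytes with 1 Igfbp2 UMI entered neither side. Chrdl1 was at 51.7, 29.6 and 31.6 normalised CPM in Igfbp2-positive and 7.18, 4.59 and 5.95 in Igfbp2-negative astrocytes, 6.43-fold higher without overlap (log2 fold change 2.69 ± 0.18, SE, adjusted p = 1.31e-33). Sparc was lower, at 194, 264 and 174 against 388, 403 and 409 (-0.94 ± 0.06, adjusted p = 6.04e-36). Gpc5 was also lower, at 6828, 7232 and 7280 against 8688, 8943 and 8832 (-0.31 ± 0.03, adjusted p = 4.82e-18), as was Gpc6, at 565, 632 and 588 against 654, 758 and 692 (-0.23 ± 0.04, adjusted p = 1.61e-06). Sparcl1 was called lower by a small margin (-0.09 ± 0.03, adjusted p = 0.0184), and its groups overlapped between libraries, at 4251, 4719 and 4202 against 4695, 4738 and 4581.

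In all, 1 member was called higher and 4 lower in Igfbp2-positive astrocytes, against 16.4% higher, 14.7% lower and 31.1% called in all of 12636 genes tested. Mertk was at 1234, 1349 and 1235 against 1176, 1279 and 1164 and missed the threshold (0.08 ± 0.04, SE, adjusted p = 0.0980). With at least 1 Igfbp2 UMI in place of 2 it was called higher (0.14, adjusted p = 1.43e-05), and so it was without thinning (0.18, adjusted p = 9.18e-06). The 95% intervals of Megf10 (-0.20 to 0.06), Gpc4 (-0.21 to 0.43), Axl (-0.26 to 0.19) and Gas6 (-0.01 to 0.38) spanned 0. Without thinning Gas6 was called higher (0.18, adjusted p = 0.00758), and the Gpc6 call was lost (-0.07, adjusted p = 0.0709). The Sparcl1 call was lost at 3000 UMIs (adjusted p = 0.238), with DESeq2 (0.141), without the library block (0.160), without library 1 (0.313) and without library 3 (0.169). Igfbp2-positive astrocytes had a higher mitochondrial share (2.29 to 2.35% against 1.91 to 1.95%), a higher median of UMIs before thinning (11453 to 11944.5 against 9933.5 to 10524.5) and less Malat1 in each library (84608, 96519 and 83161 against 96532, 97669 and 95075 CPM), and genes of at least 500 kb had a median of -0.38, values whose part in the differences was not tested. Both contrasts use the same astrocytes, so that Agt and Igfbp2 status are not independent splits.

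**Figure D3:**
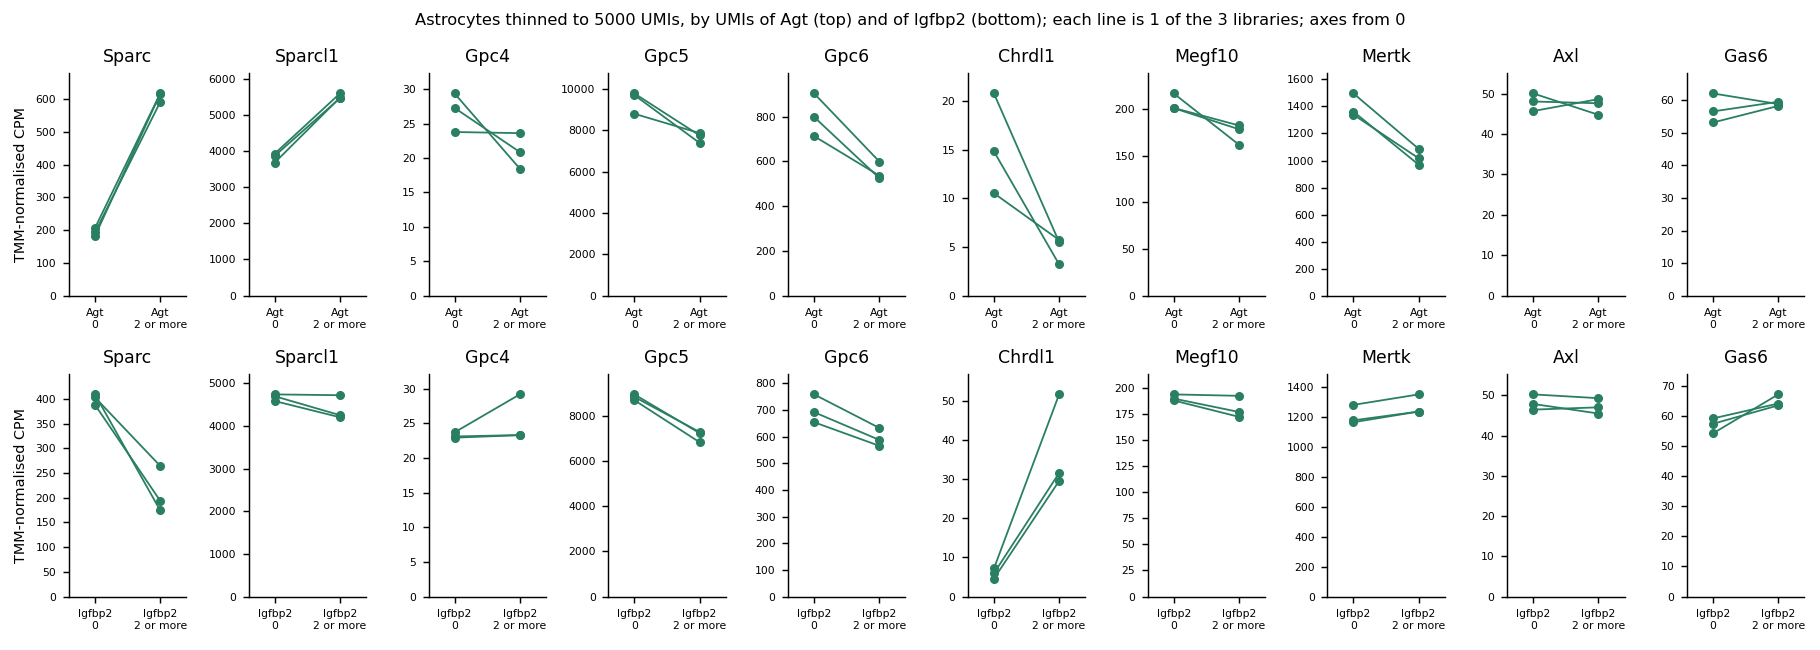
TMM-normalised CPM (vertical axes from 0) of each gene in astrocytes thinned to 5000 UMIs, with 0 or with 2 or more UMIs of Agt (top) or Igfbp2 (bottom); each line joins both values of 1 of the 3 libraries. In every library Sparc rises and Chrdl1 falls with Agt, and Chrdl1 rises and Sparc falls with Igfbp2.

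Other genes of the pathways were counted in the same contrasts. In Agt-positive astrocytes, the tested genes of the lists apart from the members were called higher and lower as 1 and 0 of 3 in the SPARC family, 1 and 1 of 11 among glypicans and partners, 0 and 4 of 17 in BMP signalling, 5 and 2 of 16 in TAM and engulfment, and 3 and 5 of 14 among the other synapse factors. In Igfbp2-positive astrocytes these counts were 0 and 2 of 3, 1 and 2 of 11, 4 and 3 of 17, 2 and 7 of 16 and 3 and 4 of 14. All medians of these genes in the Agt contrast lay between -0.06 and 0.06, whereas in the Igfbp2 contrast they ran from -0.55 in the SPARC family to 0.15 in BMP signalling.

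Across single astrocytes thinned to 5000 UMIs, the counts of several members were correlated, given here as a description over cells that share a library and a depth. Sparc and Sparcl1 counts correlated at 0.38, 0.38 and 0.40 in the 3144, 2256 and 2367 astrocytes of libraries 1 to 3. Gpc5 correlated with Mertk at 0.42, 0.39 and 0.39 and with Gpc6 at 0.38, 0.40 and 0.41. Sparcl1 was negatively correlated with Gpc5 (-0.35, -0.47 and -0.45) and with Mertk (-0.32, -0.33 and -0.29). Correlations of Chrdl1 with Sparc (-0.11 to -0.07) and Sparcl1 (-0.08 to -0.01) and of Megf10 with Sparc (-0.08 to -0.06) were weak. Malat1 counts correlated with Sparcl1 at 0.19 to 0.21 and with Gpc5 at -0.11 to -0.01, and the mitochondrial share with Gpc5 at -0.18 to -0.12. An astrocyte thinned to 3000 UMIs held a median of 5 of the 10 genes, and a pericyte 4. At least 5 of the genes were found in 68.0 to 68.7% of astrocytes and in 16.2 to 17.4% of pericytes.

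For the behavioural groups, cells were assigned to mice by a strict hashtag call, in which the strongest hashtag had at least 10 UMIs and 3 times the next. The call kept 335 astrocytes (3.83%) and 1024 pericytes (45.3%), and the strongest hashtag had a median of 4 UMIs in astrocytes and 18 in pericytes. At least 5 astrocytes remained in 11 mice, namely 2 NoFC, 2 FC, 4 NoFR and 3 FR mice, and 159 of the 335 astrocytes came from FC mouse 1. All 16 mice had 36 to 110 pericytes. A further 111 astrocytes and 538 pericytes carried a strict call of a hashtag listed for no mouse of their library. Mice of the same group were spread over the libraries, except that library 2 held no NoFR and library 3 no FC mouse, and the library entered the fits as a covariate.

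No member was called in astrocytes between any of the 6 pairs of groups or across the 4 groups. The lowest log2 fold change over the pairs was -0.97, for Axl in FR against FC (95% interval -2.71 to 0.77). The highest was 0.85, for Gpc6 in FR against NoFR (0.25 to 1.46). Even the narrowest interval, of Mertk in FR against NoFR, ran from -0.55 to 0.54, so that a missing call does not show an unchanged level. The filter on low counts was passed by 8 of the 10 genes, all but Gpc4 and Chrdl1. At an unadjusted p under 0.05, 1 member passed across the 4 groups (Gpc6) and 1 in FR against NoFR (Gpc6), and none in the other pairs, and DESeq2 called none. Of all 3390 genes, 100 passed this p across the 4 groups, 117 in FR against NoFR and 89 to 132 in the other pairs. Of the 3390 genes tested, 0.0295% were called in FC against NoFC, 0.0590% in NoFR against NoFC, 0.0295% in FR against NoFC, 0.00% in each of the 3 remaining pairs, and 0.0295% across the 4 groups. From 5 to 159 astrocytes stood behind each mouse.

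The astrocyte levels per mouse overlapped between groups in most genes. Sparcl1 was at 4646 and 4863 normalised CPM in NoFC mice, 4089 and 4684 in FC mice, 4761, 5128, 4349 and 2768 in NoFR mice and 4877, 4656 and 3989 in FR mice. The lowest value, of NoFR mouse 4, rested on 9 astrocytes, and this mouse was also lowest in Sparc, at 56.5 against 401 to 545 in the other NoFR mice. Mertk, the engulfment receptor, was at 1026 and 1588 in NoFC mice, 1383 and 1348 in FC mice, 986 to 1610 in NoFR mice and 935 to 1624 in FR mice. Gpc6 was at 545, 465, 473 and 480 in NoFR mice and at 874, 662 and 1287 in FR mice, with no overlap between these groups (log2 fold change 0.85 ± 0.31, SE, adjusted p = 0.999). With the looser hashtag call, which kept 4 mice per group, the groups overlapped, at 472 to 797 in NoFR mice (mean 623) and 704 to 965 in FR mice (mean 832). In NoFC mice it was at 367 and 932 and in FC mice at 696 and 702, so that both NoFC values lay outside the FC range. Other pairs also did not overlap under the strict call. These were Gpc6 in NoFR and FC mice, Sparc in FC (292 to 358) and FR mice (404 to 630), and Gas6 in FC (51.5 to 63.2) and NoFC mice (71.0 to 75.6). With the looser call these pairs overlapped too. Under that call FC and NoFR mice did not overlap in Mertk (1246 to 1480 against 1028 to 1197) or Gas6 (55.5 to 59.1 against 64.5 to 67.4). The share of all genes without overlap at so few mice per group was not counted, so no result about the members is drawn from these separations.

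**Figure D4:**
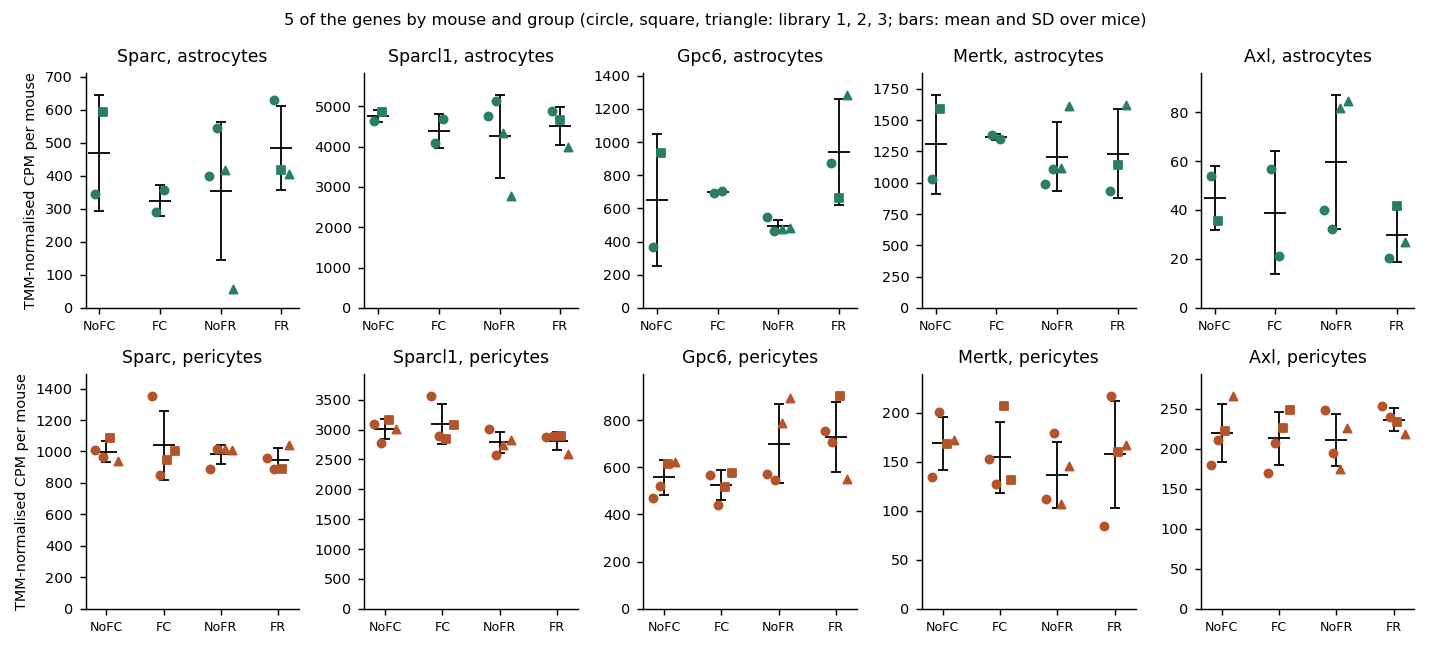
TMM-normalised CPM per mouse (vertical axes from 0) of 5 of the genes in astrocytes (top, mice with at least 5 cells) and pericytes (bottom) in the NoFC, FC, NoFR and FR groups; circles, squares and triangles are mice of libraries 1, 2 and 3, and bars are the mean and SD over mice. The groups overlap in the pericytes for all 5 genes, and pericyte Gpc6 reaches its highest values, 893 and 905, in 1 NoFR and 1 FR mouse.

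In pericytes no member was called between groups either, and Gpc6 came closest. The filter was passed by 7 genes, all but Chrdl1, Megf10 and Gas6. Of the 6543 genes tested, 0.00% were called in FC against NoFC, 1.07% in NoFR against NoFC, 0.00% in FR against NoFC, 0.443% in NoFR against FC, 0.00% in FR against FC, 0.0917% in FR against NoFR and 0.627% across the 4 groups. At an unadjusted p under 0.05, Gpc6 passed across the 4 groups and in NoFR and FR against each of NoFC and FC, Gpc4 passed in FR against NoFR (log2 fold change -0.89 ± 0.43, SE), no member passed in FC against NoFC, and DESeq2 called none. Of all 6543 genes, 483 passed this p across the 4 groups. Against NoFC 564 passed in NoFR, 418 in FR and 300 in FC. Against FC 503 passed in NoFR and 316 in FR, and 410 passed in FR against NoFR. Sparc varied between 851 and 1356 normalised CPM over the 16 mice and Sparcl1 between 2570 and 3570, with group means of 947 to 1039 and 2783 to 3096. Axl varied between 170 and 266 and Mertk between 84.5 and 217, and each group overlapped every other in these 4 genes.

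Pericyte Gpc6 was at 470, 521, 616 and 621 normalised CPM in NoFC mice, at 569, 440, 516 and 575 in FC mice, at 573, 548, 790 and 893 in NoFR mice and at 755, 705, 905 and 549 in FR mice. The means were 557 ± 74.1, 525 ± 62.3, 701 ± 168 and 729 ± 147 (SD, n = 4 mice each), and the lowest FR mouse lay within the NoFC and FC ranges. The edgeR test across the 4 groups gave an adjusted p = 0.0866. The log2 fold change was 0.48 ± 0.13 (SE) for FR against FC (adjusted p = 0.327), 0.46 ± 0.15 for NoFR against FC (0.233), 0.38 ± 0.13 for FR against NoFC (0.468) and 0.36 ± 0.13 for NoFR against NoFC (0.296). In 2-sided exact permutation tests of the 6 pairs, the smallest p was 0.0857, for FR against FC and FR against NoFC (adjusted over the 6 pairs 0.257), where 4 mice against 4 cannot go below 0.0286. Gpc6 alone was permuted, the member with the smallest edgeR p across the 4 groups. The permutation took no account of the library and was not adjusted over the 7 members that passed the filter.

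The pericyte Gpc6 calls changed with the mice and settings used. Without FR mouse 4, the lowest of its group, the log2 fold change was 0.64 for FR against FC (edgeR adjusted p = 0.00951) and 0.60 for FR against NoFC (0.0420), and Gpc6 was called in both pairs. Across the 4 groups it was called without FR mouse 4, without FC mouse 1, with no filter on low counts and with stricter gates. Within library 1 the mean of the 2 mice per group was 495 for NoFC, 505 for FC, 560 for NoFR and 730 for FR. In library 2 the FR mouse (905) was above the 2 FC mice (mean 545) and the NoFC mouse (616), whereas in library 3 the FR mouse (549) was below the NoFC mouse (621) and the 2 NoFR mice (mean 841). Between FR and NoFR the log2 fold change was 0.02 ± 0.13 in pericytes. A difference between the astrocyte and the pericyte response was not tested.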

How the data were processed

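The authors deposited UMI counts per gene and hashtag for each cell barcode, 1 matrix per library. The labels name Cell Ranger 3.0 and mm10, whereas the matrix headers name version 7.0.0; neither states whether intronic reads were counted. The 10 members, the pathway lists and the tests were chosen with earlier results of these data known. Barcodes were gated by UMIs and assigned to mice by hashtag as described above, with no clustering and no doublet caller; barcodes positive for both classes fell in neither gate, and mice with fewer than 5 cells of a class were left out.

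Counts were summed by library and class, by library and marker status after thinning, or by mouse, and fitted with edgeR 4.0.16 (limma 3.58.1, R 4.3.3; filterByExpr, TMM, quasi-likelihood F test), with the library as a block or covariate and Benjamini-Hochberg adjustment over all genes tested. DESeq2 1.42.0, other filters, gates, hashtag calls, depths and UMI thresholds, and leaving out each library or mouse were alternatives. Gene scripts were tested on simulated data. Tables used Python 3.11.15 (numpy 2.4.6, pandas 2.3.3, scipy 1.17.1). Intervals are 95% and cover counting error only, apart from those of log2 fold changes, which are normal approximations from the SE.

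Beside the members, the text names, per pathway list and direction, up to 3 genes called between astrocytes and pericytes with the largest absolute log2 fold change, and for 6 members the 3 genes with the highest correlation among genes with at least 100 UMIs, of which 1 is not reported here. Levels are not corrected for gene length and were not ranked between genes. Gene positions are from GENCODE vM21 (GRCm38).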

Additional observations from a re-analysis of the deposited data

Results flagged for a closer look

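Among 36 groups of 4 mice, of which chance flags about 1 in 20, 2 had a mouse far from the other 3. In pericytes Sparc was at 890 normalised CPM in NoFR mouse 1 (59 cells) and at 1010 to 1017 in the other NoFR mice. Sparcl1 was at 2591 in the pericytes of FR mouse 4 (58 cells) and at 2883 to 2894 in the other FR mice.

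The 2529 barcodes in neither gate, which entered no comparison, also held all 10 genes above the level that a count of 0 allows. Their median was 790.5, 900 and 725 UMIs in libraries 1 to 3, against 9891 over all astrocytes and 5006 over all pericytes. They also took in barcodes positive for both classes, so that their levels cannot be assigned to 1 cell class. Over the 3 libraries Gpc5 was at 5680 CPM, Sparcl1 at 3202 CPM, Mertk at 723 CPM, Gpc6 at 642 CPM, Sparc at 459 CPM, Megf10 at 108 CPM and Axl at 82.9 CPM. The lowest were Gas6 at 46.2 CPM (199 UMIs), Gpc4 at 23.0 CPM (99 UMIs) and Chrdl1 at 9.52 CPM (41 UMIs).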

How the results depend on the processing

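Of the 10 members, 9 were called between astrocytes and pericytes in every alternative but one: sums per mouse with the mouse as a replicate block gave 8 members and 3168 of 4551 genes, where fewer cells and genes entered, and without a replicate block 9 were called. With scaling by library totals the 9 held Gpc4 in place of Gpc6. By Agt status 7 members were called, 7 without the replicate block, 5 without thinning, 6 with DESeq2 and 5 to 8 without 1 library; 2371 genes were called, against 3914 without thinning, 809 with DESeq2 and 1407 to 2489 without 1 library. By Igfbp2 status 5 members were called, 4 without the replicate block and 4 to 5 without 1 library; 3934 genes were called, against 5684 without thinning, 4199 at 1 UMI or more, 2566 at 3000 UMIs, 1991 with DESeq2 and 2495 to 3366 without 1 library. The cause was not tested. The library is the replicate number here, and mice of different groups shared no pairing.

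Across the 4 groups in astrocytes 1 gene was called, against 3 with DESeq2, 6 with no filter, 2 with no library covariate, 0 with the looser hashtag call, the mitochondrial filter or stricter gates, and 1 to 11 without 1 mouse. Over the pairs these counts were 4, 2 with DESeq2, 12 with no filter, 0 with the looser call or the mitochondrial filter, 2 with stricter gates and 3 to 12 without 1 mouse. In pericytes 41 genes were called across the 4 groups, 24 with DESeq2, 92 with no filter and 26 to 56 without 1 mouse, and 105 over the pairs, 60 with DESeq2, 169 with no filter and 54 to 134 without 1 mouse. The member Gpc6 was called across the 4 groups with no filter (1 member), with stricter gates (1) and in 0 to 1 members without 1 mouse, and over the pairs in 0 to 2.

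Uncalled differences changed sign. For Agt, Axl was 0.018 at 1 UMI or more, 0.15 without thinning, 0.14 at 3000 UMIs and -0.091 to 0.055 without 1 library, and Gas6 -0.0012 to 0.10 without 1 library. For Igfbp2, Gpc4 was -0.36 at 3000 UMIs and -0.0021 to 0.17 without 1 library, Megf10 0.063 and Axl 0.062 without thinning, and Mertk -0.012 at 3000 UMIs. A minimum of 15 astrocytes per mouse was not run, since it could not be fitted.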
